A study of Mus musculus with 47 samples.

Results

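The 14 Suv39h1 WT lymphomas of an Eµ-myc;Bcl2 mouse lymphoma series were split into 7 strong and 7 weak interferon responders, and these classes were compared in their native state and in their response to Adriamycin (ADR, doxorubicin, a DNA-damaging drug). The classes were chosen by measured values: each lymphoma was ranked by its mean change, ADR minus native, of Oasl2, Zbp1, Isg15, Irf7, Ifit3 and Usp18, and these 6 genes were left out of every comparison. The classes take 28 of the 47 arrays of the series, 14 arrays a class. All ranked lymphomas are WT for the histone methyltransferase Suv39h1, carry the Myc transgene of the B cell lineage and came from lymph nodes. All carry a Bcl2 retrovirus (MSCVpuro), were selected with puromycin for 48 h, and were grown on NIH 3T3 mouse fibroblasts irradiated with 20 Gy. ADR arrays follow 5 days of 0.05 µg/ml ADR and are labelled senescent, and native arrays are untreated and labelled non-senescent. Age and strain of the mice were not given in the sources used here. Used beside them as values alone are 5 Suv39h1- lymphomas (native and ADR) and 3 Suv39h1ER cultures, deficient in Suv39h1 and carrying a Suv39h1 fusion that 4-hydroxytamoxifen (4OHT) activates, each with an array for ADR plus 4OHT, for ADR alone and for the native state.

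Interferons bind receptors that signal through JAK kinases and STAT transcription factors. Stat2 and Irf9 belong to the factor that turns on the interferon-stimulated genes, whose products block viruses at many steps, and Irf7 and the nucleic acid sensors among them feed back on interferon production. Damaged or senescent cells can start the same programme without a virus when cytosolic DNA or RNA is sensed. Of the ranking genes, Oasl2 codes for a protein of the oligoadenylate synthetase family, Zbp1 for a sensor of Z-form nucleic acids, Isg15 for a ubiquitin-like modifier and Usp18 for the protease that removes it and dampens receptor signalling. Irf7 codes for a transcription factor of the interferon genes and Ifit3 for a protein of the complex that holds foreign RNA.

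The element bound by STAT and interferon regulatory factors reads as a pair of GAAA repeats with any 2 bases between them, so promoters were searched for that pattern on both strands, overlapping matches counted. Windows reached from 250 bases before to 50 bases after the transcription start (RefSeq sequences, GRCm38.p6). Of the ranking genes, Oasl2, Irf7, Isg15 and Ifit3 had a window; Isg15 held 3 matches, Ifit3 held 2, and Oasl2 and Irf7 held 0. The pattern was in 15 of 37 antiviral effector genes with a window and in 6 of 9 genes of the interferon-gamma GTPase and chemokine list. It was in 2 of 17 genes of the receptor and JAK-STAT list, 4 of 16 nucleic acid sensors and adaptors and 3 of 13 class I genes. Over all 27025 genes the share was 3.99%, and over all 32851 windows 3.44%. A match is a description of letters, not evidence of binding. Stretches of 40 bases around a match are shown for Isg15 (chr4:156200860-156200899, minus strand) and Ifit3 (chr19:34583392-34583431, plus strand), which ranked the lymphomas, and for Rsad2 (chr12:26456548-26456587, minus strand), one of the effectors set apart most by the ranking. Each reads 5′ to 3′ along the gene's strand, with matches in capitals.
Isg15: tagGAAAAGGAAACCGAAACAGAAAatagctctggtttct
Ifit3: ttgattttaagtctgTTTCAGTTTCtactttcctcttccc
Rsad2: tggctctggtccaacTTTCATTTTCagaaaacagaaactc
The window of Xaf1, described below, held 0 matches.

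Facts of the whole set bear on all that follows. Array medians of the 28 arrays lay between 4.35 and 4.43 log2 units. Pearson correlations were taken over 200 genes chosen to differ much between lymphomas and little between the 2 arrays of a lymphoma. Native arrays gave 0.30 to 0.84 among lymphomas 2949, 5043, 5766 and 6054 (median 0.73, 6 pairs). The other 85 pairs of native arrays gave -0.54 to 0.68 (median 0.03). The 2 arrays of 1 lymphoma gave 0.11 to 0.82 (median 0.52). Under ADR the 4 lymphomas gave 0.32 to 0.83 (median 0.52) and the other pairs -0.57 to 0.83 (median -0.03). Whether these 4 are separate lymphomas was not tested, and 2 of them (5043, 5766) are strong and 2 (2949, 6054) weak. The n of 7 counts lymphomas as labelled. The B cell receptor component Cd79a stood at 7.83 to 10.81 in ADR arrays of strong and 7.28 to 10.39 in those of weak responders, and at 9.27 to 10.46 in native arrays of strong and 9.46 to 10.11 in those of weak responders. Other B cell markers differed in level. Under ADR Blnk stood at 11.31 to 12.07 in strong and 10.35 to 11.80 in weak responders. Ms4a1 stood at 6.82 to 10.73 in strong and 5.44 to 9.86 in weak responders. Pax5 stood closer to the array medians, at 4.65 to 5.18 in strong and 4.66 to 5.10 in weak responders. Arrays of bulk cultures cannot tell fewer cells of a type from less RNA per cell.

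The ranking spread the lymphomas over a wide range without a break at the class border. The mean change of the 6 probe sets, in log2 units, was 3.65 in lymphoma 3769, 2.45 in 2581, 2.26 in 7050, 2.21 in 9584, 2.10 in 5766, 1.91 in 1570 and 1.89 in 5043 among strong responders. Among weak responders it was 1.79 in 3594, 1.78 in 5560, 0.92 in 1467, 0.71 in 6054, 0.04 in 9583, -0.29 in 2949 and -0.38 in 403. The members just inside and just outside the border, 5043 and 3594, lay 0.10 apart, while the step between 5560 and 1467 was 0.86. Class means were 2.35 ± 0.60 in strong and 0.65 ± 0.91 in weak responders (SD, n = 7 each). Isg15 was read by a single probe set, which it shares with Gm9706. Ranking on the 5 genes with a probe set of their own, an alternative chosen after seeing the data, puts 3594 among the strong and 5043 among the weak responders.

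**Figure D1:**
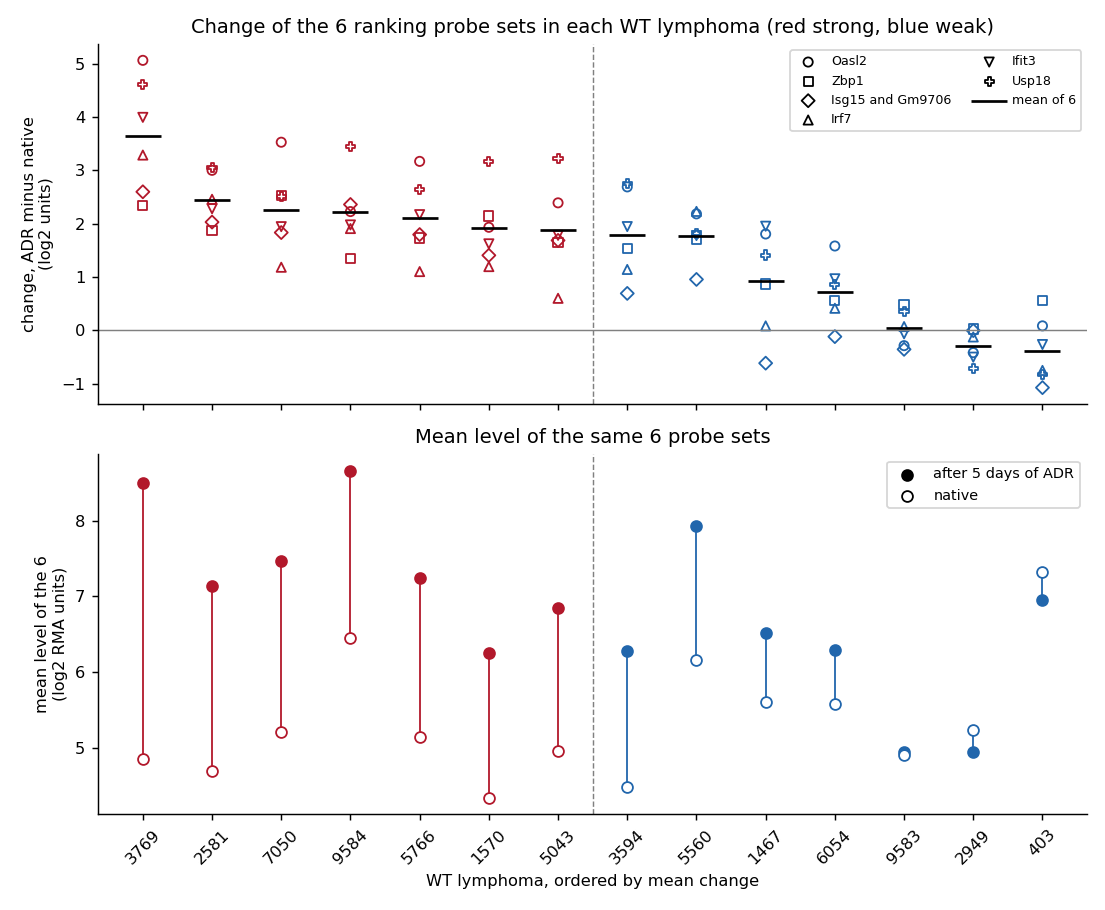
Top, change of each ranking probe set (ADR minus native, log2 units) in 14 WT lymphomas ordered by the mean of 6 (black bars), strong responders in red and weak in blue, with a dashed line at the class border. Bottom, mean level of the 6 (log2 RMA units) under ADR (filled) and native (open): lymphoma 403, last of the weak, had the highest native mean, 7.33, while 9583 stood near 4.9 in both states.

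A weak response covered several patterns of level. Under ADR the mean level of the 6 was 6.25 to 8.66 in strong and 4.94 to 7.93 in weak responders, and native it was 4.33 to 6.45 in strong and 4.48 to 7.33 in weak responders, so the classes overlap in both states. Lymphoma 403 had 6.95 under ADR and 7.33 native, the highest native mean of all 14. Lymphomas 9583 and 2949 had 4.94 and 4.94 under ADR and 4.90 and 5.23 native, the lowest ADR means of the 14. Lymphoma 5560, just below the border, had 7.93 under ADR and 6.15 native. Of the strong responders, 9584 alone had a native mean above 6, at 6.45, and it had the highest ADR mean, 8.66.

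The ranking genes did not divide the lymphomas equally well. The probe set of Isg15 and Gm9706 changed by 1.41 to 2.60 in strong and by -1.07 to 0.96 in weak responders, with no overlap. Usp18 changed by 2.52 to 4.61 in strong and by -0.83 to 2.76 in weak responders, and Oasl2 by 1.93 to 5.06 in strong and by -0.42 to 2.69 in weak responders. Zbp1 changed by 1.35 to 2.53 in strong and by 0.03 to 1.70 in weak responders, above 0 in all 14. Irf7 changed by 0.60 to 3.29 in strong and -0.75 to 2.23 in weak responders, where 5560 exceeded 5 of the 7 strong responders. Ifit3 changed by 1.62 to 4.00 in strong and -0.50 to 1.95 in weak responders, where 3594, 1467 and 5560 exceeded the lowest strong value. These values chose the classes and are given as a description with no test. Every response value below comes from the same ADR minus native contrast and is likewise described, not tested.

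Held-out antiviral effectors, the proteins that act on viral RNA, entry and budding, followed the ranking as a group. All 46 measured members of the list had a larger mean change in strong than in weak responders, with a median difference of 0.59, while over all 18189 genes compared the median difference was -0.01 and 48.5% lay above 0. The list mean changed by 0.91 ± 0.22 in strong and 0.19 ± 0.51 in weak responders (SD, n = 7 each). By lymphoma it ranged from 0.69 to 1.30 (median 0.82) among strong and from -0.59 to 0.78 (median 0.20) among weak responders. The classes overlap through 3594 alone, at 0.78, while 1467 and 5560, at 0.68 and 0.55, lay below the lowest strong value. Of the 46 members, 24 had a change above 0 in all 7 strong responders, where 8.68% of all genes had, and 3 had one in all 7 weak responders, where 5.61% of all genes had. Among all genes, 0.407% had a difference of at least 1 log2 unit in favour of strong responders and 0.17% one of at least 1 in favour of weak responders. That balance, 74 genes against 31, was 118 against 126 without lymphoma 1467, 66 against 106 without 2949 and 93 against 187 without the 4 alike lymphomas. It was 64 against 168 with the macrophage change as a covariate, and 74 against 73 with the alike lymphomas averaged. Of the 46 effectors 10 were among the 74 genes. The rule used this contrast, so nothing is read from that count.

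Mx1, a dynamin-like GTPase that traps viral nucleocapsids, had the largest difference of the list. Its change was 0.71 to 3.40 in strong responders (median 2.18) and -1.34 to 1.43 in weak responders (median 0.20), a difference of 1.91 in means. Its ADR level was 4.58 to 7.40 in strong and 3.51 to 6.35 in weak responders, and its native level 3.17 to 5.22 in strong and 3.64 to 5.65 in weak responders. Each measure overlaps between the classes. Rsad2 (viperin), which makes a chain-ending nucleotide, changed by 1.48 to 4.50 (median 2.40) in strong and -0.28 to 1.98 (median 0.91) in weak responders. Rtp4, a chaperone for membrane receptors that is also antiviral in mice, changed by 1.46 to 3.95 (median 3.53) in strong and -1.0 to 3.06 (median 1.72) in weak responders. The other effectors with a difference of at least 1, listed after their values were seen, were Ifi27l2a (1.55), Ifit1 (1.36), Oas1a (1.34), Cmpk2 (1.26), Xaf1 (1.24), Slfn5 (1.14) and Ifitm1 (1.00).

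Xaf1, a promoter of apoptosis that antagonises inhibitor of apoptosis proteins, was the one list gene whose classes did not overlap. It changed by 1.03 to 1.74 (median 1.47) in strong and by -0.58 to 1.00 (median 0.20) in weak responders. Its native level was 6.29 to 7.62 in strong and 6.51 to 8.85 in weak responders, and its ADR level 7.80 to 9.36 in strong and 6.64 to 8.93 in weak responders. Of all genes, 3 (0.0165%) had non-overlapping changes with the strong class higher and 2 (0.011%) with it lower. Beside Xaf1 these were Nkx6-2 and Ncbp3, higher in strong responders by 0.41 and 0.35, and Ndufc1 and Sox21, lower in strong responders by 0.37 and 0.24. Ncbp3, of the nuclear RNA cap-binding complex, changed by -0.38 to 0.10 in strong and -0.62 to -0.40 in weak responders. Ndufc1, a subunit of respiratory complex I, changed by -0.73 to -0.27 in strong and -0.26 to 0.15 in weak responders.

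**Figure D2:**
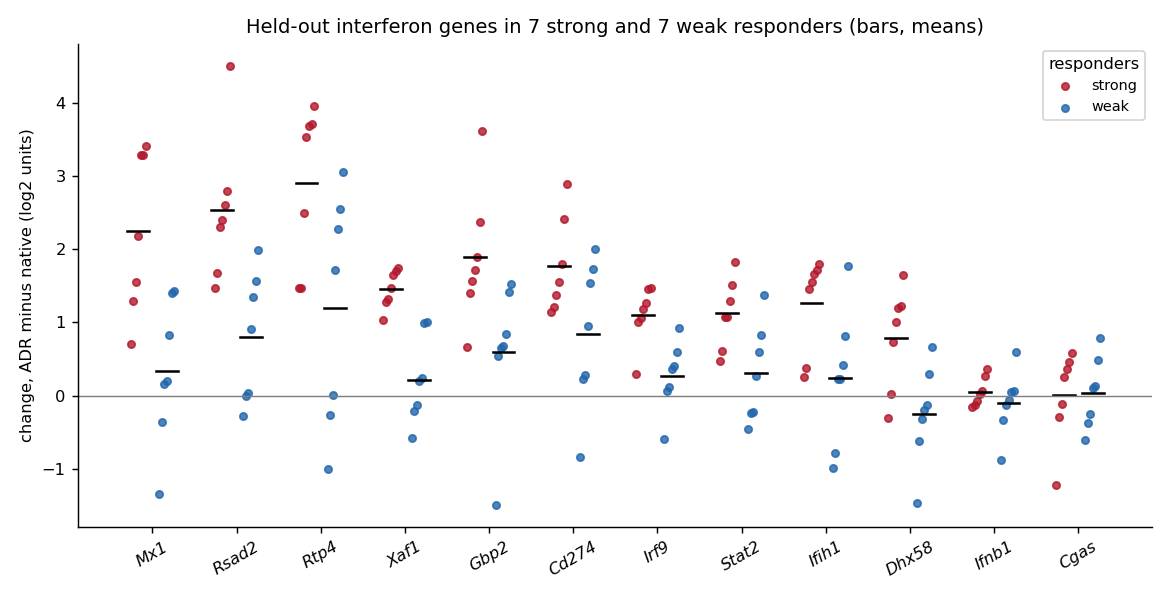
Change (ADR minus native, log2 units) of 12 interferon-related genes that took no part in the ranking, one point per lymphoma, 7 strong (red) left of 7 weak (blue) responders, bars at the means. Xaf1 alone of the 12 has no overlap; Mx1 averaged 2.24 in strong and 0.33 in weak responders, while Ifnb1 and Cgas averaged between -0.10 and 0.05 in both.

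Interferon ligands showed little difference, at low levels. The 10 measured of 19 listed ligand genes had a median difference of 0.03. Their mean change was -0.03 ± 0.06 in strong and -0.04 ± 0.10 in weak responders (SD, n = 7 each). Their mean level was 3.58 in strong and 3.61 in weak responders under ADR, and 3.61 in strong and 3.65 in weak responders native. These means lie below the array medians of 4.35 to 4.43 and detection was not assessed, so flat values cannot show that ligands were not induced. Ifnb1, the interferon beta gene, had native levels of 3.90 ± 0.20 in strong and 3.91 ± 0.24 in weak responders, and changed by 0.05 ± 0.20 in strong and -0.10 ± 0.45 in weak responders. No ligand differed by 1 log2 unit. Ifna1 had the largest difference, -0.20, with changes of 0.01 ± 0.31 in strong and 0.22 ± 0.26 in weak responders.

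Receptors and signalling parts of the pathway differed by less than the effectors, and in 16 of 18 members the change was larger in strong responders (median difference 0.30). Irf9, the DNA-binding part of the interferon-stimulated factor, changed by 0.30 to 1.47 (median 1.18) in strong and -0.59 to 0.92 (median 0.37) in weak responders. Stat2, its partner, changed by 0.47 to 1.83 (median 1.08) in strong and -0.45 to 1.38 (median 0.27) in weak responders. The receptor chains overlapped broadly, with Ifnar1 at 0.49 ± 0.42 in strong and 0.04 ± 0.58 in weak responders, and Ifnar2 at 0.31 ± 0.78 in strong and 0.08 ± 0.92 in weak responders (SD, n = 7 each). For Ifnar2, 2 of its 3 probe sets had a difference of the other sign. Ptpn6, a phosphatase that restrains JAK kinases, had a difference of 0.52.

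The list of GTPases and chemokines best known as targets of interferon gamma had the median difference 0.63, with 11 of 14 members larger in strong responders. Its mean changed by 0.65 ± 0.23 in strong and 0.11 ± 0.30 in weak responders (SD, n = 7 each). Gbp2, a guanylate-binding protein that attacks pathogen vacuoles, changed by 0.66 to 3.61 (median 1.72) in strong and -1.49 to 1.52 (median 0.68) in weak responders. Cd274, which codes for the checkpoint ligand PD-L1, changed by 1.77 ± 0.65 in strong and 0.84 ± 1.01 in weak responders, and the GTPase Igtp by 0.87 ± 0.44 in strong and 0.02 ± 0.35 in weak responders.

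Sensors of nucleic acids did not follow the ranking as one group. Of 21 sensors and adaptors, 15 had the larger change in strong responders, and the median difference was 0.10. The RNA sensors Ifih1 (MDA5) and Dhx58 (LGP2) differed by 1.02 and 1.04. Ifih1 changed by 0.25 to 1.80 (median 1.54) in strong and -0.99 to 1.76 (median 0.23) in weak responders, and Dhx58 by -0.30 to 1.64 (median 1.00) in strong and -1.47 to 0.66 (median -0.20) in weak responders. Ifi204, a DNA sensor of the HIN-200 family, differed by 1.09, with 2.61 ± 0.95 in strong and 1.52 ± 0.89 in weak responders. The kinase Ikbke had a difference of 0.97. Cgas, the cytosolic DNA sensor, changed by 0.01 ± 0.62 in strong and 0.04 ± 0.49 in weak responders, and 1 of its 2 probe sets had the other sign. Its adaptor Sting1 changed by -0.15 ± 0.49 in strong and -0.23 ± 0.48 in weak responders. Nucleases and editing enzymes that remove the ligands of these sensors had a median difference of -0.11 over 10 genes; Dnase2a, the lysosomal DNase, changed by -0.19 ± 0.47 in strong and 0.60 ± 0.31 in weak responders.

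Antigen presentation moved with the ranking to different extents. Of 16 class I genes 14 had the larger change in strong responders, with a median difference of 0.28, and the mean of the list changed by 0.26 ± 0.27 in strong and 0.00 ± 0.19 in weak responders (SD, n = 7 each). The peptide transporter Tap1, which is also among the effectors, differed by 0.61. All 13 class II and co-stimulation genes had the larger change in strong responders, with a median of 0.57, and the list mean changed by 0.27 ± 0.50 in strong and -0.32 ± 0.51 in weak responders. The co-stimulator Cd86 changed by -1.91 to 1.98 (median 1.75) in strong and -1.80 to 1.07 (median -0.57) in weak responders. The list of interferon regulatory factors outside Irf7 and Irf9 had a median difference of 0.11 over 7 genes, with Irf4 at 0.50.

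**Figure D3:**
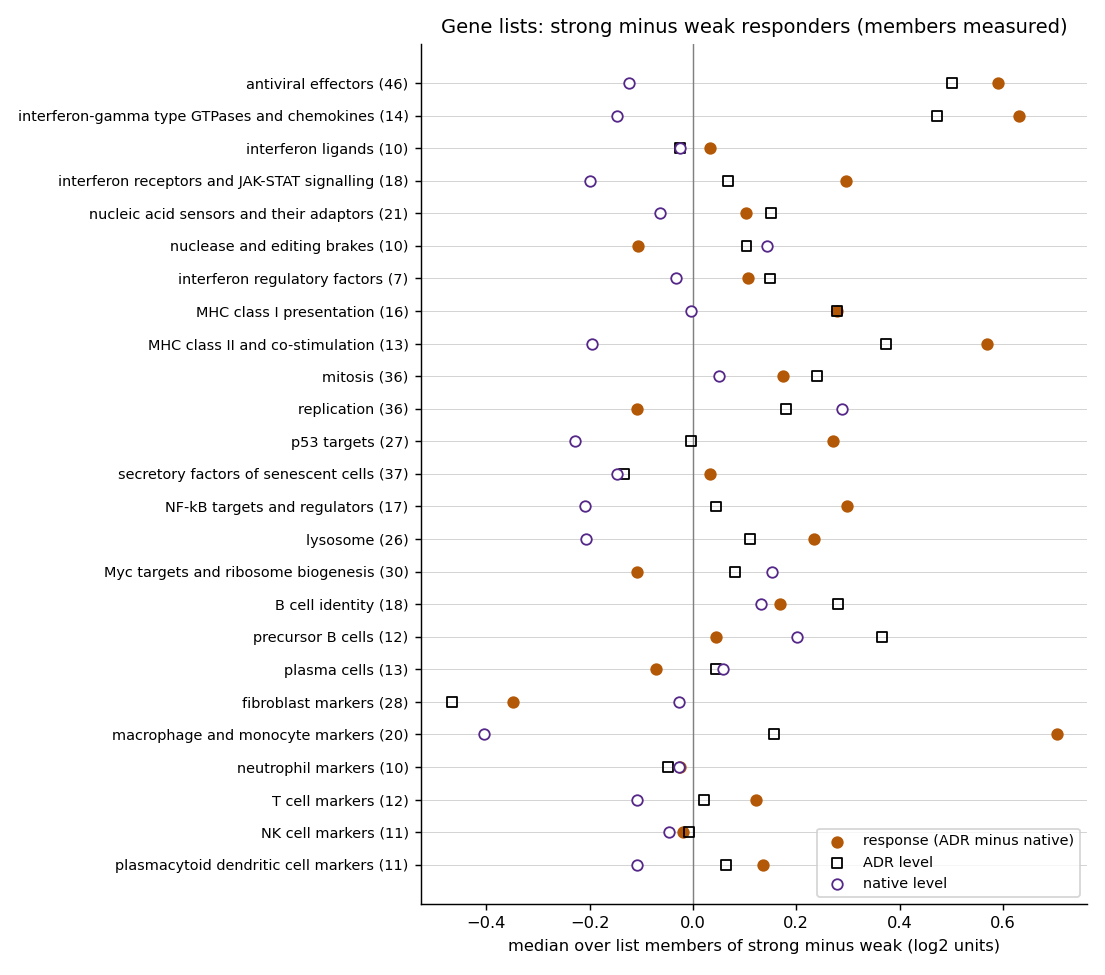
Median over the members of 25 gene lists (number measured in brackets) of the difference, strong minus weak responders, in response (filled circles), ADR level (squares) and native level (open circles), in log2 units. Macrophage markers (0.71), interferon-gamma GTPases (0.63) and antiviral effectors (0.59) lie farthest right in response, fibroblast markers (-0.35) farthest left, and replication genes (0.29) farthest right in native level.

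Response medians of the growth, p53, NF-kB, lysosomal, secretory and B cell lists lay between -0.11 and 0.30 under the rule, and several turned when lymphomas were left out. Mitosis genes had a lower ADR than native level in both classes, with mean changes of -1.81 ± 0.89 in strong and -2.0 ± 0.92 in weak responders. Medians over lymphomas lay the other way, at -2.13 in strong and -1.84 in weak responders. Strong responder 9584 changed by only -0.15 and weak responder 2949 by -3.76. Over genes the median difference in class means was 0.17, and 32 of 36 genes had the less negative change in strong responders. That direction turned without lymphoma 2949 (-0.10, 10 of 36), without 9584 (-0.09, 11 of 36) and without the 4 alike lymphomas (-0.08, 13 of 36). Replication genes and Myc targets lay on the other side, with 31 of 36 (median -0.11) and 23 of 30 (median -0.11) lower in strong responders. Leaving out 1 lymphoma gave medians of -0.35 to -0.02 for replication genes and -0.28 to 0.06 for Myc targets, above 0 without 1467 or 2949. The proliferation marker Mki67 changed by -2.19 ± 1.11 in strong and -2.43 ± 0.95 in weak responders. Targets of p53 had a median difference of 0.27 with 21 of 27 larger in strong responders, between 0.12 and 0.38 leaving out 1 lymphoma, and -0.04 when ranked on the ADR level. Mdm2, the ligase that degrades p53, changed by 1.69 ± 0.72 in strong and 0.84 ± 0.81 in weak responders, and Cdkn1a, the cell cycle inhibitor p21, by 1.30 ± 0.94 in strong and 0.93 ± 0.64 in weak responders. Genes of NF-kB signalling had a median of 0.30 over 17 members, with the adaptor Traf1 at 0.80, and lysosomal genes one of 0.23 over 26, with the protease Ctsb at 0.77. Leaving out 1 lymphoma, these medians were lowest at 0.11 for NF-kB (without 2581) and at 0.12 for the lysosome (without 2949).

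Secretory factors of senescent cells changed strongly in both classes, by 1.38 ± 0.35 in strong and 1.17 ± 0.78 in weak responders (SD, n = 7 each), and their median difference was 0.03, with 20 of 37 genes larger in strong responders. That median was 0.35 without lymphoma 403, -0.02 to 0.13 without any other single lymphoma, and 0.76 when ranked on the ADR level. The elastase Mmp12 changed by 1.11 to 6.31 (median 3.40) in strong and 0.37 to 4.31 (median 1.90) in weak responders. B cell identity genes had a median difference of 0.17 with 16 of 18 larger in strong responders, which turned to -0.05 with 5 against 5 lymphomas and to -0.30 when ranked on the ADR level. Ms4a1, the surface protein CD20, changed by 0.07 to 3.05 (median 1.01) in strong and -1.95 to 1.43 (median -0.52) in weak responders. Precursor B cell genes had a median of 0.05 with 8 of 12 larger in strong responders, and -0.05 without lymphoma 403. Their member of largest difference was Vpreb3, and Sox4, a transcription factor gene named after its value was seen, lay the other way at -1.21. Vpreb3, of the precursor B cell receptor pathway, changed by -1.28 ± 1.23 in strong and -2.87 ± 1.64 in weak responders. The introduced genes were close in the native state, with Bcl2 at 11.22 ± 0.49 in strong and 11.23 ± 0.43 in weak responders, and Myc at 11.41 ± 0.34 in strong and 11.18 ± 0.43 in weak responders. Their changes were -0.65 ± 0.53 in strong and -1.21 ± 0.71 in weak responders for Bcl2, and -0.72 ± 0.50 in strong and -0.85 ± 0.99 in weak responders for Myc.

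Of the markers of other cells, those of macrophages moved most with the ranking, and the part of other cells in the results was not tested. All 20 macrophage and monocyte markers were measured, and 18 had the larger change in strong responders (median difference 0.71). Their mean change was 0.95 to 2.95 (median 1.65) in strong and 0.41 to 1.79 (median 0.72) in weak responders. Summed on the linear scale they stood at 4475 to 27220 in strong and 7202 to 28850 in weak responders under ADR, and at 1523 to 9102 in strong and 1889 to 14720 in weak responders in the native state. The defining macrophage marker Adgre1 (F4/80) had ADR levels of 6.92 to 9.75 in strong and 5.79 to 10.31 in weak responders. Fcgr1, an Fc receptor of macrophages that also responds to interferon, changed by 2.60 ± 1.57 in strong and 1.00 ± 1.57 in weak responders. With the macrophage change as a covariate the effector median was 0.48, and 44 of 46 members stayed above 0.

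Fibroblast markers, which the feeder cells express, had a median difference of -0.35 over 28 members, and their mean changed by 1.75 ± 0.97 in strong and 2.06 ± 1.67 in weak responders (SD, n = 7 each). That direction turned to 0.63 with the 5 highest against the 5 lowest lymphomas, to 0.67 with ranking on the median change, to 1.85 with ranking on the ADR level and to 0.14 with ranking on 5 genes. Without lymphoma 403 it was -0.04, and without 5560 it was -0.09. Summed levels were 4559 to 19860 in strong and 4802 to 62180 in weak responders under ADR. The collagen gene Col1a1 stood at 4.19 to 8.41 in strong and 4.47 to 9.71 in weak responders under ADR. With the fibroblast change as a covariate the effector median was 0.58, with 46 of 46 above 0. The T cell, NK cell, neutrophil and plasmacytoid dendritic cell lists had median differences of 0.12, -0.02, -0.02 and 0.14. Of 10 neutrophil markers, 4 had the larger change in strong responders, and the levels were uneven. Mpo stood at 3.01 to 3.34 in strong and 3.07 to 3.44 in weak responders under ADR, below the array medians. S100a8, of largest response difference, changed by 2.89 ± 2.02 in strong and 1.35 ± 0.92 in weak responders. Mmp8 had native levels of 4.33 ± 0.63 in strong and 6.30 ± 1.78 in weak responders. The plasmacytoid marker Siglech stayed at 4.16 to 4.67 in strong and 4.4 to 5.07 in weak responders under ADR.

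The number of genes with a large difference in response rested on single lymphomas. The total was 105 at a size of at least 1 log2 unit, 244 without lymphoma 1467 and 172 without 2949. The effector median lay between 0.48 and 0.69 over the 14 ways to leave out a lymphoma. Ranked on the ADR level of the 6 probe sets alone, the strong class takes in 403 and 5560 in place of 1570 and 5043, and the effector median was 0.13, with 33 of 46 above 0.

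In the native state, before any drug, no gene was called as different between the classes in the limma test. Of 18189 genes 0 (0%) were called at adjusted p under 0.05, and the lowest adjusted p was 0.943. At an unadjusted p under 0.05 there were 774 (4.26%), 440 higher and 334 lower in strong responders. The classes were made with native values of the ranking genes, subtracted, so low native interferon levels favour a high rank by construction. The 4 genes of lowest p in each direction, none of them called, were Mical3, Dennd5b, Nek3 and Xrn1, higher in strong responders, and Mybpc2, Samd8, Zfp469 and Nkiras1, lower in strong responders. Xrn1, the exonuclease that degrades decapped RNA, was at 6.84 ± 0.12 in strong and 6.54 ± 0.09 in weak responders (log2 difference 0.30, SE 0.07). Mybpc2, a myosin-binding protein of muscle, was at 4.94 ± 0.19 in strong and 5.69 ± 0.32 in weak responders (-0.74, SE 0.13).

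Native levels of the effectors depended on how the classes were made. By the rule 33 of 46 effectors were lower in strong responders, with a median difference of -0.12, against a median of 0.00 over all genes. By lymphoma the list mean was 6.81 to 7.67 in strong and 6.73 to 8.03 in weak responders, and 403 held the highest value. Ranked on ADR arrays alone, which uses no native array, 34 of 46 effectors were higher in the strong class, with a median of 0.22. An ADR level is the native level plus the change, so that ranking can favour high native levels. It takes in 403 and 5560, with native means of the 6 ranking probe sets of 7.33 and 6.15. Ranked on the median change, 24 of 46 effectors were higher in the strong class, with a median of 0.03. Under the rule, Xaf1 (-0.60, SE 0.31), Mx1 (-0.64, SE 0.35), Cd274 (-0.63, SE 0.30) and Ikbke (-0.73, SE 0.44) had lower native levels in strong responders, each at adjusted p = 0.943 in the limma fit.

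Replication genes, which copy DNA, had the most one-sided native levels among the lists. All 36 measured members were higher in strong responders, with a median difference of 0.29, where 50.4% of all genes were. By lymphoma the list mean was 8.68 to 9.51 in strong and 8.48 to 9.17 in weak responders, so the classes overlap. At unadjusted p under 0.05 there were 14 of 36, to be read against 4.26% of all genes, and members of one programme vary together. That count was 6 without lymphoma 2581 or 5560, 8 without 2949 or 7050, 9 without 1467, 1570 or 3769, and 24 without 9584, with 36 of 36 above 0 each time. Ranked on the ADR level the median was 0.14, with 34 of 36 above 0 and 2 at that p. Pola1, the catalytic subunit of the polymerase that primes DNA, was at 7.98 to 8.97 (median 8.85) in strong and 7.83 to 8.42 (median 7.95) in weak responders, a log2 difference of 0.58 (SE 0.18). Pole2, a subunit of DNA polymerase epsilon, was at 7.88 to 9.04 (median 8.68) in strong and 7.62 to 8.57 (median 8.13) in weak responders, a log2 difference of 0.51 (SE 0.17), and had the largest response difference of the list, -0.85. Under ADR 33 of 36 were higher in strong responders, with a median of 0.18.

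Growth genes of the Myc target list pointed the same way as replication in the native state, with 29 of 30 members higher in strong responders, a median of 0.15, and 0 at an unadjusted p under 0.05. Without lymphoma 2949 these were 20 of 30 and 0.04. Mitosis genes did not share the pattern, at 23 of 36 and a median of 0.05. Secretory factors were lower in strong responders in 31 of 37 members (median -0.15, 6 at that p). That count is to be read against 4.26% of all genes, and members of a list can vary together. Leaving out 1 lymphoma, it was 5 to 10. Among secretory factors Mmp12 had the largest difference, with native levels of 3.31 to 6.78 (median 4.14) in strong and 4.78 to 9.56 (median 7.61) in weak responders. Macrophage markers were lower in 15 of 20 (median -0.40), and the lysosomal macrophage protein Cd68 differed by -1.13 (SE 0.51). That macrophage direction turned under ranking on the median change (0.21), on the ADR level (0.77) and with 5 against 5 lymphomas (0.06).

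**Figure D4:**
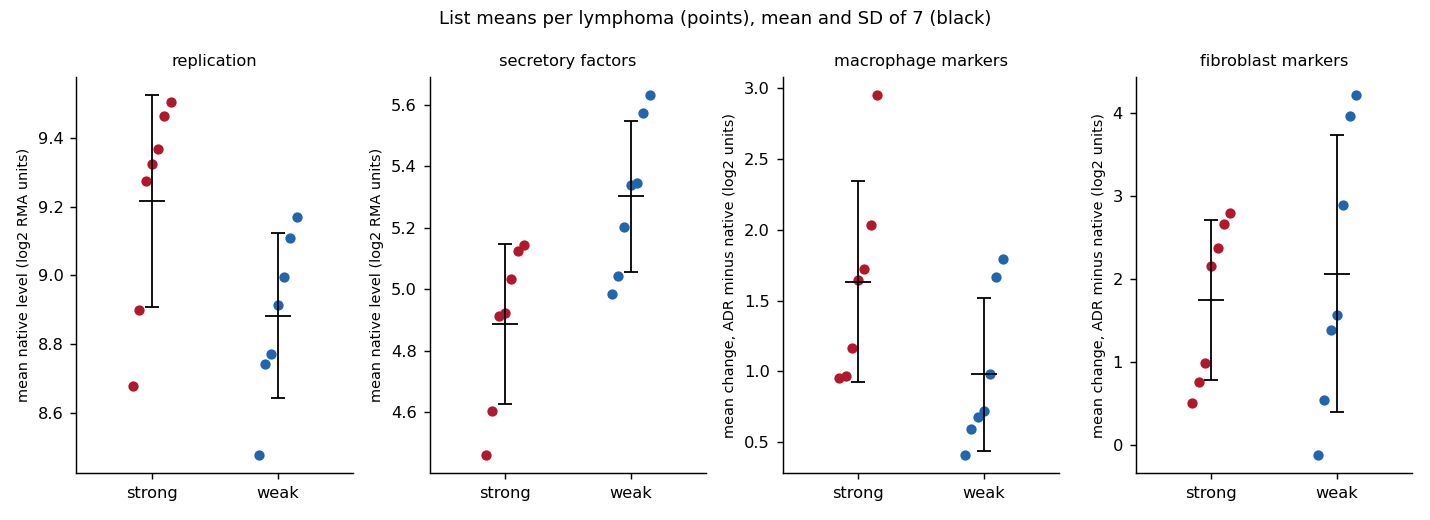
Mean over list members per lymphoma (points) in 7 strong (red) and 7 weak (blue) responders, with mean and SD in black, axes not starting at 0. From left, native level of replication genes (9.22 ± 0.31 in strong, 8.88 ± 0.24 in weak) and of secretory factors (4.89 ± 0.26 in strong, 5.30 ± 0.25 in weak), then change of macrophage markers and of fibroblast markers; all 4 panels overlap.

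Array quality did not separate the native classes in exact two-sided permutation tests over all 3432 ways to choose 7 of 14 lymphomas. The array median, the 18S control and, for Gapdh and Actb, the gap between probe sets at the 3′ and 5′ ends had adjusted p = 0.700 over the 4 tests. The 18S control was 7.28 ± 0.09 in strong and 7.16 ± 0.31 in weak responders (SD, n = 7 each). Under ADR, where no test was made, it was 7.47 ± 0.54 in strong and 7.18 ± 0.58 in weak responders. The Gapdh gap under ADR was 0.05 to 0.91 in strong and 0.01 to 0.44 in weak responders. That of Actb was 0.39 to 1.12 in strong and 0.38 to 0.77 in weak responders. The largest gaps thus lay in the strong class, and their part in the response values was not tested.

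The same 6 probe sets also varied between arrays that took no part in the ranking. In the 5 Suv39h1- lymphomas under ADR, labelled non-senescent, the mean change was 1.47 in 1032, 1.02 in 5783, 0.34 in 4936, -0.33 in 9250 and -1.04 in 7890. All 5 lie below the lowest strong WT value, 1.89, but the ranking itself set that border. All weak WT responders lie below it by construction. The values of 1032, 5783, 4936 and 9250 lie within the range of both WT classes together, -0.38 to 3.65. Only 7890 lies below that range. Its native mean of the 6 was 6.81 and its ADR mean 5.77, while 1032 had 7.47 under ADR and 6.0 native. Effectors changed by -0.59 to 0.48 in Suv39h1- lymphomas. The 3 Suv39h1ER cultures share numbers with other samples in 2 cases: 1 has the number of the strong WT responder 5043 and 1 that of the Suv39h1- lymphoma 4936, and the labels do not say whether they derive from them. Under ADR with 4OHT, labelled senescent, the mean change was 0.91 in the Suv39h1ER culture numbered 5043, 0.58 in that numbered 4936 and 2.22 in SuvER-4146. Under ADR alone it was 0.11 in the Suv39h1ER culture numbered 5043, 1.79 in that numbered 4936 and 0.66 in SuvER-4146. It was thus smaller with 4OHT in the culture numbered 4936 and larger in the other two, and with 3 cultures no test was made.

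**Figure D5:**
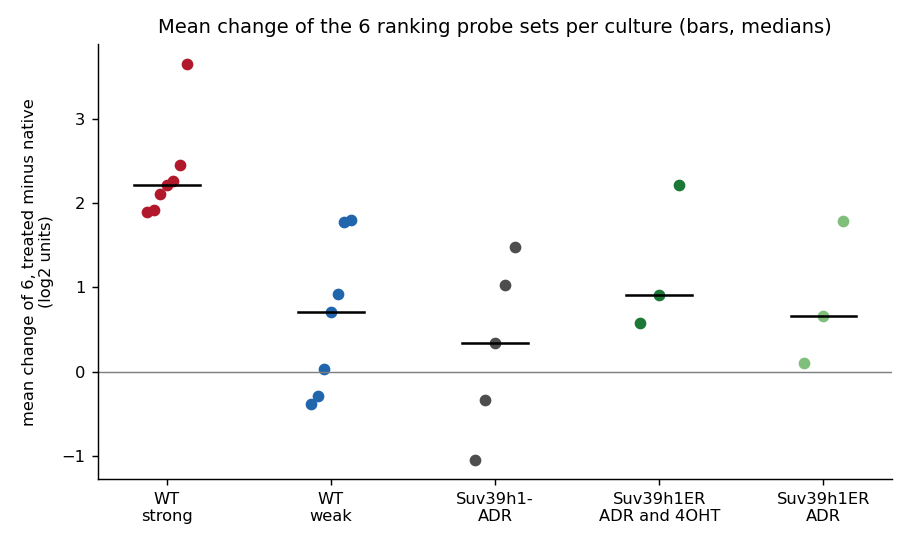
Mean change of the 6 ranking probe sets (treated minus native, log2 units) per culture, with medians as bars, in strong and weak WT responders, Suv39h1- lymphomas under ADR, and Suv39h1ER cultures under ADR with 4OHT and ADR alone. Suv39h1- values run from -1.04 to 1.47, and the 2 WT classes are apart because the measure itself made them.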

How the data were processed

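RNA of 22 cultures was measured on 47 arrays. Values were deposited on a log2 scale, 1 level per probe set, and per the submitters' processing notes the authors used RMA, oligo and R 3.5.0. The sources used here do not say whether all arrays were processed together. Of 45101 probe sets 34958 carry 1 gene symbol in the platform annotation, 932 several and 9211 are unnamed here, and 34754 symbols were updated through Entrez numbers. Each of 18194 genes was read by its brightest probe set, judged by the mean of all arrays, and 18189 remained without the ranking genes. Dim genes were kept. The lowest value was 0.308 and the highest 15.0, and precision is limited by the number of arrays.

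The members and the 26 gene lists were chosen with earlier results of these data known. Classes follow the rule of the opening. Native levels were tested with limma 3.58.1 (lmFit, eBayes, two-sided, Benjamini-Hochberg over all genes) in R 4.3.3 on 14 arrays, a fit also tested on simulated data. Responses were not tested. Lists are given by counts and medians. Named genes are the ranking genes, the genes of lowest native p (up to 4 a direction) or with non-overlapping responses, for the effector, GTPase, receptor and sensor lists the 3 members of largest response and 2 of largest native difference (1 of each for other lists), and a fixed set of pathway genes. The labels number the lymphomas, each counted as 1 replicate, and p-values measure the spread between them. Alternatives changed the class size, the ranking measure, the probe set rule, the scaling, a low-value filter, covariates, the eBayes options and the lymphomas included. No detection call or scan date was used. Promoters came from RefSeq tables. Python 3.11.15, SciPy 1.17.1 and pandas 2.3.3 were used beside R.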

Additional observations from a re-analysis of the deposited data

Results flagged for a closer look

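In 6 of 112 groups of 7 values tested for a sample far from the rest, 1 lymphoma stood apart. Chance alone flags about 1 in 20 groups of separate samples. That share does not apply here as it stands, because the groups share lymphomas. The ranking on the 6 probe sets also cut the classes and so shaped the spread of their values. The flags are given as a description. Among strong responders lymphoma 3769 had a mean change of the 6 ranking probe sets of 3.65, with the other 6 at 1.89 to 2.45. Lymphoma 9584 had a native mean of the 6 of 6.45, with the others at 4.33 to 5.21, and a native mean of the antiviral effectors of 7.67, with the others at 6.81 to 7.10. The native mean of the NF-kB list was 7.49 in strong responder 2581, with the others at 8.04 to 8.23, and 8.83 in weak responder 1467, with the others at 7.96 to 8.27. The native mean of the plasma cell list was 6.80 in weak responder 403, with the others at 7.37 to 7.78. Sox21, a transcription factor gene, had a change below 0 in all 7 strong responders and above 0 in all 7 weak responders, a difference of -0.24 that was not tested.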

How the results depend on the processing

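No paired analysis was possible because each lymphoma enters the native comparison once and the response, already a difference within a lymphoma, has no test. The native count of called genes was 0 in every setting run, the 14 that leave out 1 lymphoma included, with 415 to 1264 genes at an unadjusted p under 0.05. The count of response differences of at least 1 log2 unit, 105 by the rule, was 339 with the 5 highest against the 5 lowest, 535 ranked on the ADR level, 280 without the 4 alike lymphomas, 232 with the macrophage covariate, 162 ranked on 5 genes, and 81 to 244 leaving out 1 lymphoma; the cause was not tested. The effector median was 0.13 ranked on the ADR level, 0.48 to 0.75 in the other settings and 0.48 to 0.69 leaving out 1 lymphoma. Array quality gave 0 calls in every setting run, each lymphoma left out included. Of the lists' response medians, that of the neutrophil markers changed sign in 6 of 25 settings, and the native median of mitosis genes in 5 of 24. Dim genes rest on signals close to background, and detection was not assessed.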

Other observations

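Genes outside the lists also differed in response by at least 1 log2 unit, and those given here were chosen after their values were seen. Myb, a transcription factor of blood cell precursors, changed by -0.55 in strong and -2.47 in weak responders. Ifi213 and Ifi207, of the HIN-200 family that includes DNA sensors, changed by 1.76 and 3.04 in strong and by -0.31 and 1.68 in weak responders. The chemokine gene Ccl22 changed by 1.14 in strong and -0.41 in weak responders. In the other direction, Idi1, Msmo1 and Elovl6, enzymes of sterol and fatty acid synthesis, changed by -2.05, -1.15 and -1.69 in strong and by -1.0, -0.08 and -0.67 in weak responders. Each of these genes overlaps between the classes.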
